A study of Homo sapiens with 16 samples.

Results

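The genes described here encode 10 transcription factors of fibroblasts and their embryonic precursors, namely TWIST1, TWIST2, PRRX1, SNAI1, SNAI2, TCF21, TBX5, TBX15, OSR1 and MEOX2. All windows carrying one of these symbols were taken from a table of 272902 windows of 2000 bp, each centred on an annotated transcription start site (TSS), and every alternative start was kept apart. This gave 33 windows. Of these, 31 lie on chromosomes and 30 have distinct coordinates, which merge into 15 separate stretches because neighbouring starts overlap. The other 2 windows are copies of the TWIST2 starts on an alternative contig and held 0 reads in every library.

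The cells were BJ-5ta, a human fibroblast cell line that carries telomerase and so can divide without limit. ΔLEO1 is 1 clone of these cells in which LEO1, a subunit of the PAF1 complex that travels with RNA polymerase II, was disrupted with CRISPR/Cas9, and WT is the unedited line. Each genotype was sampled in medium with 10% serum, where cells divide, and after 10 days in 0.1% serum, where they become quiescent. Each of the 4 combinations had 2 ChIP and 2 input libraries, marked A and B. The antibody is labelled H3, and the methods of the study name histone H3 dimethylated at lysine 9 (H3K9me2). The labels do not say whether A and B were separate cultures, so p-values measure only the spread between these libraries, which may be technical.

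H3K9me2 is laid down mainly by the methyltransferases EHMT1 and EHMT2 and is typical of silent chromatin inside the nucleus and at its edge, while the starts of active genes usually lack it. The 10 factors belong to families with well known roles in mesenchyme. TWIST1, TWIST2 and TCF21 are basic helix-loop-helix factors, SNAI1, SNAI2 and OSR1 are zinc finger proteins, TBX5 and TBX15 are T-box factors, and PRRX1 and MEOX2 carry homeodomains. Which of them a fibroblast uses depends on the part of the body it came from, and no RNA measurement was used here, so the activity of these genes in BJ-5ta is not part of the data.

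The usable libraries held 2153836 to 3696942 reads over TSS windows for ChIP (7 libraries) and 3267811 to 9238282 reads for input (8 libraries). The ChIP library of ΔLEO1 in 10% serum marked A held 54 reads in all and none at the 30 windows, and it was left out, so ΔLEO1 in 10% serum rests on 1 ChIP library. At the start of LEO1 itself the inputs held 26 to 53 reads in WT and 16 to 24 reads in ΔLEO1. The guides target the first exons, and the ends of any deletion were not used here, so this window does not check the genotype.

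For each gene the leading window is the one whose centre lies nearest to the gene start in RefSeq (assembly GRCh38.p14), and it was chosen without counts. It covers 1 kb before the start and 1 kb of the gene after it. The bases before the start are shown for the genes at both ends of the range of ChIP over input for which the RefSeq promoter table has the leading start. TBX5 and TWIST2 stand at the low end, and MEOX2 and TCF21 at the high end. Each line gives 250 bases, 5′ to 3′ on the strand of the gene, with CpG dinucleotides in capitals. The positions in GRCh38.p14 are chr12:114408443-114408692 (minus strand) for TBX5, chr2:238847835-238848084 (plus strand) for TWIST2, chr7:15686684-15686933 (minus strand) for MEOX2 and chr6:133888863-133889112 (plus strand) for TCF21.
TBX5: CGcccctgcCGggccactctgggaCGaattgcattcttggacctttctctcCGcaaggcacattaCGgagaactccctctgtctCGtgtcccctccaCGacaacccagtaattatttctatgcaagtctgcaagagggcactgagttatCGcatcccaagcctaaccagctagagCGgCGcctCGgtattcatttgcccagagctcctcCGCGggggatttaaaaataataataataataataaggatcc
TWIST2: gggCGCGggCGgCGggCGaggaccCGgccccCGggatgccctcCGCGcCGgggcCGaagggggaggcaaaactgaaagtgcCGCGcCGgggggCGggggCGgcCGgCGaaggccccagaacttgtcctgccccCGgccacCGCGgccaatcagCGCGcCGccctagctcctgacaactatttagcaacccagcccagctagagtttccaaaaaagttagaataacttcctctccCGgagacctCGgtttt
MEOX2: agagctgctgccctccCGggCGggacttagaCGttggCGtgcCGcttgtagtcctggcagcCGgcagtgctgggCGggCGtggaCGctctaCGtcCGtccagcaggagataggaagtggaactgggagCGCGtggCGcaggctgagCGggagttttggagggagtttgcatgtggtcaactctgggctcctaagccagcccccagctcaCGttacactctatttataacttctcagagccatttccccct
TCF21: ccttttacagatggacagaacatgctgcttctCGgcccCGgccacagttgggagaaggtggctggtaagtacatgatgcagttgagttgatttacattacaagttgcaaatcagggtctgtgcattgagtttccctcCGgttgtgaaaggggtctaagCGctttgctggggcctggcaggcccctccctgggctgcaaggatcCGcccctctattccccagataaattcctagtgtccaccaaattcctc

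TWIST2 has 26 CpG in these bases, with 0.889 of the CpG expected from its C and G content and 68.4% GC. TBX5 has 13 CpG, or 0.818 of the expected number, at 51.2% GC. MEOX2 has 16 CpG and 0.689 of the expected number, and TCF21 has 5 CpG and 0.287. The median of the 35114 RefSeq promoters searched was 0.558. Thus both promoters with little ChIP signal held more CpG than the median promoter and TCF21 held less, while MEOX2 also lay above the median. An alternative start of PRRX1 that the promoter table holds has 6 CpG, or 0.425 of the expected number, although its window was low in ChIP reads.

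Some short motifs were counted in the same 250 bases on both strands. The letters CANNTG, an E-box of the kind that basic helix-loop-helix and Snail factors recognise, were found 3 times before TCF21, 1 time before MEOX2 and TBX5 each, and in neither the TWIST2 nor the PRRX1 promoter, beside 61.8% of all promoters with at least 1. CAGGTG, read as CACCTG on the other strand and a special case of CANNTG, was in none of the 5 and in 17.5% of all promoters. CCAAT was found in TWIST2 (1 match) and PRRX1 (2 matches) and in 32.0% of all promoters. TATAAA had 1 match, in MEOX2, and was in 10.7% of all promoters. These matches describe the letters only.

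ChIP over input asked where in this family the mark is present. It is given as the log2 ratio of ChIP to input reads, each scaled by its TMM-adjusted library total (CPM), from 1 fit of the 15 usable libraries in edgeR, with its standard error (SE). A value of 0 means that a window takes the same share of the ChIP library as of the input library after scaling, so values are relative to the other windows. Relative to input, the 10 genes fell apart into a low and a high set. For counts by library, each ChIP library was set against the input of the same group and letter. SNAI2, TBX5, TWIST2, PRRX1, SNAI1 and TWIST1 had fewer ChIP reads than the input rate gives in 7 of 7 libraries, TBX15, MEOX2 and TCF21 had more in 7 of 7, and OSR1 had fewer in 6 of 7.

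**Figure D1:**
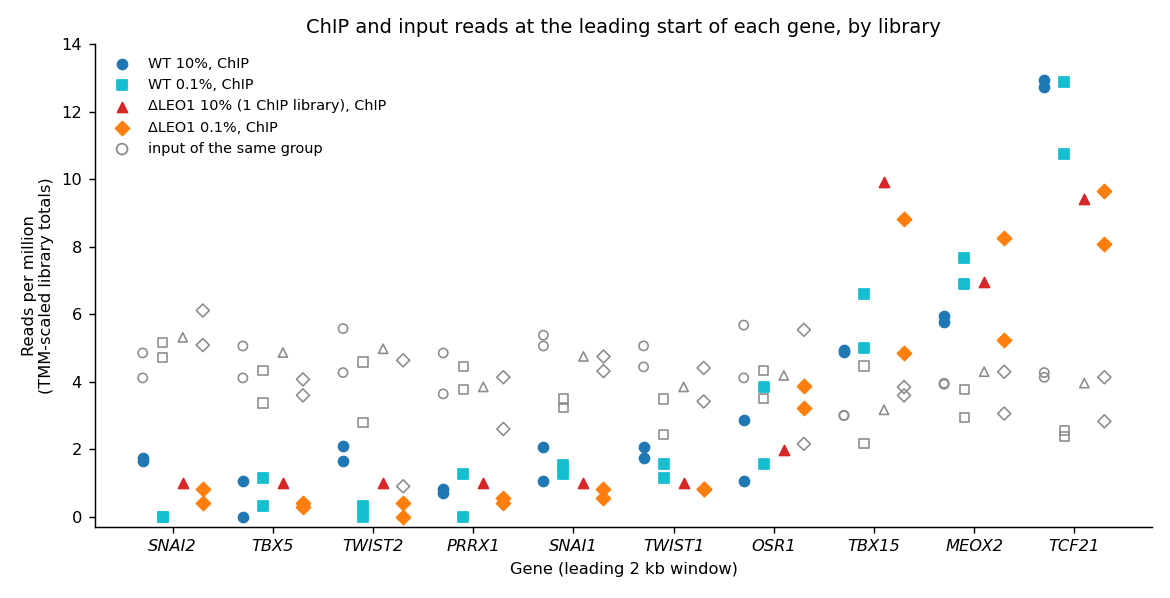
CPM (library totals scaled by TMM) at the leading window of each gene. Filled points are ChIP libraries, coloured by genotype and serum, and open grey points are inputs of the same group and letter. ChIP lies below input at SNAI2, TBX5, TWIST2, PRRX1, SNAI1 and TWIST1, and above it at TBX15, MEOX2 and TCF21, where ChIP reaches 12.9 CPM.

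Over the 30 distinct windows, 19 were called lower and 6 higher in ChIP than in input in WT cells in 10% serum (edgeR quasi-likelihood test, Benjamini-Hochberg adjusted p under 0.05), beside 29.1% of all 237580 windows tested that were called lower and 29.5% that were called higher. In WT cells in 0.1% serum 17 were called lower and 10 higher, beside 28.0% and 25.7% of all windows. In ΔLEO1 cells in 0.1% serum 18 were called lower and 10 higher, beside 28.7% and 27.0%. In ΔLEO1 cells in 10% serum, with 1 ChIP library assumed to vary like the other groups, 14 were called lower and 7 higher, beside 11.3% and 15.4%. All 30 windows passed the filter on low counts in this fit. The windows are not independent, because the starts of a gene overlap, and the leading windows alone gave 7 of 10 lower and 1 of 10 higher in WT cells in 10% serum, where 23.1% and 40.7% of the leading windows of all genes were called.

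In 18 of the 30 windows, of 6 genes, ChIP was under the input rate in every library. These windows held 0 to 7 ChIP reads with a median of 2, against 5 to 60 input reads with a median of 33. In 9 windows, of 5 genes, ChIP was over the input rate in every library, with 12 to 41 ChIP reads and 14 to 45 input reads. The other 3 windows, 1 each of OSR1, PRRX1 and TBX15, were mixed. Because a low window holds so few reads, the reads themselves are given for each gene, with the ratio of the pooled ChIP rate to the pooled input rate and its 95% interval (exact, from the binomial split of the reads), which covers counting error only. Input reads are given for the library of the same group and letter, while the pooled ratio of ΔLEO1 in 10% serum uses both inputs of that group. Where leaving out 1 library ended a call at a leading window, the library and the log2 value without it are given.

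The pair of Twist genes was low in all groups. TWIST1, needed for cranial and limb mesenchyme, has its leading window on chromosome 7 from 19116636 to 19118636. It held 5 and 5 ChIP reads in WT 10% serum, 5 and 3 in WT 0.1% serum, 3 and 2 in ΔLEO1 0.1% serum and 2 in the usable library of ΔLEO1 10% serum, against 32 and 43, 18 and 25, 19 and 39, and 34 input reads. Every library lay under its input rate. Scaled to CPM, the ChIP values were 2.05 and 1.75 in WT 10% serum, 1.57 and 1.15 in WT 0.1% serum, 0.826 and 0.806 in ΔLEO1 0.1% serum and 0.991 in ΔLEO1 10% serum, so the groups did not overlap in ChIP. As ratios to input the WT groups overlapped, and no genotype or serum difference was called. Such separation was common among the 159524 windows that passed the low-count filter in ChIP, which this one did not. ΔLEO1 lay wholly below WT at 22.3% in 0.1% and 38.2% in 10% serum, and wholly above it at 18.5% and 33.8%. WT 0.1% serum lay wholly below WT 10% serum at 22.8%, and above it at 17.4%. Of the 30 windows, 5, 10 and 9 were lower and 3, 13 and 5 higher in these comparisons. The pooled ratio in WT 10% serum was 0.403 (95% interval 0.186 to 0.783). The log2 ChIP over input was -1.16 ± 0.47 (SE) in WT 10% serum (edgeR adjusted p = 0.0105), -0.91 ± 0.52 in WT 0.1% serum (adjusted p = 0.0753), -1.86 ± 0.59 in ΔLEO1 0.1% serum (adjusted p = 0.000344) and -1.82 ± 0.92 in ΔLEO1 10% serum (adjusted p = 0.0435). The call was lost in WT 10% serum without ChIP B (-1.11) and in ΔLEO1 10% serum without input A (-1.64), and was gained in WT 0.1% serum with library totals in place of TMM (-1.01).

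Of all 30 windows, the lowest mean over the WT groups was that of another TWIST1 start, ENST00000443687, which lies 712 bp into the gene (19115924 to 19117924). It held 2 and 2 ChIP reads in WT 10% serum, 0 and 0 in WT 0.1% serum, 0 and 2 in ΔLEO1 0.1% serum and 1 in ΔLEO1 10% serum. The inputs held 33 and 42, 19 and 27, 16 and 28, and 29 reads in the same libraries. Its log2 ChIP over input was -2.15 ± 0.65 in WT 10% serum (edgeR adjusted p = 7.58e-05). The reads of a noncoding gene, ENSG00000236536, fall in the same windows and cannot be told apart from those of TWIST1.

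TWIST2, a close relative of TWIST1 with roles in the dermis, has its leading window on chromosome 2 from 238847085 to 238849085. It held 4 and 6 ChIP reads in WT 10% serum, 1 and 0 in WT 0.1% serum, 0 and 1 in ΔLEO1 0.1% serum and 2 in ΔLEO1 10% serum. The inputs held 27 and 54, 34 and 20, 5 and 41, and 44 reads. Both WT libraries in 10% serum lay above the other 5 ChIP libraries in reads, and 1 input, ΔLEO1 0.1% serum A, had only 5 reads. In CPM, WT 0.1% serum lay wholly below WT 10% serum at 22.8% of all windows that passed the filter in ChIP. The pooled ratio was 0.373 (0.173 to 0.722) in WT 10% serum, 0.0466 (0.00116 to 0.271) in WT 0.1% serum and 0.0513 (0.00127 to 0.30) in ΔLEO1 0.1% serum. The window was called lower in ChIP than in input in all 4 groups, with log2 values from -2.86 ± 0.87 in WT 0.1% serum (edgeR adjusted p = 1.15e-05) to -1.25 ± 0.48 in WT 10% serum (adjusted p = 0.00626). It was lost in WT 10% serum without ChIP A (-1.17) or input B (-1.02), in ΔLEO1 0.1% serum without input B (-1.18) and in ΔLEO1 10% serum without input B (-1.81).

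TCF21 behaved the other way and had the highest WT mean of ChIP over input of the 10 genes, although TBX15 was higher in ΔLEO1 10% serum. This factor marks epicardial and other visceral mesenchyme, and its leading window lies on chromosome 6 from 133888113 to 133890113. It held 31 and 37 ChIP reads in WT 10% serum, 41 and 28 in WT 0.1% serum, 35 and 20 in ΔLEO1 0.1% serum and 19 in ΔLEO1 10% serum, against 27 and 40, 19 and 17, 23 and 25, and 35 input reads. Each ChIP library was above its input rate, by 2.33-fold to 5.03-fold. The pooled ratio was 3.07 (2.16 to 4.37) in WT 10% serum, 4.83 (3.18 to 7.44) in WT 0.1% serum, 2.7 (1.80 to 4.07) in ΔLEO1 0.1% serum and 2.61 (1.44 to 4.56) in ΔLEO1 10% serum. The log2 values were 1.53 ± 0.26 (adjusted p = 6.89e-08), 2.10 ± 0.29 (adjusted p = 7.03e-11), 1.33 ± 0.29 (adjusted p = 2.60e-05) and 1.30 ± 0.40 (adjusted p = 0.0124) in the same order, by edgeR. In ΔLEO1 10% serum DESeq2 (1.27) did not make the call, nor did edgeR with the library of 54 reads kept (1.15).

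Among the leading windows of 36314 genes, the WT mean of TCF21 stood above 97.9%. Those of MEOX2 and TBX15 stood above 63.9% and 61.1%, nearer to the middle of all genes. The other start of TCF21, ENST00000237316, lies 222 bp into the gene, shares most of the window and had the highest WT mean of all 30 windows. It held 33 and 32, 40 and 27, 35 and 18, and 22 ChIP reads in the same order of groups, against 23 and 39, 18 and 18, 26 and 22, and 35 input reads. The start of TARID, a noncoding RNA gene on the other strand, lies in the same windows.

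Of the zinc finger genes, SNAI1 and SNAI2, repressors of epithelial genes, were low. SNAI1 (chromosome 20, 49981980 to 49983980) held 5 and 3 ChIP reads in WT 10% serum, 4 and 4 in WT 0.1% serum, 2 and 2 in ΔLEO1 0.1% serum and 2 in ΔLEO1 10% serum, against 34 and 49, 24 and 25, 24 and 42, and 42 input reads. All 3 ΔLEO1 libraries had fewer ChIP reads than any of the 4 WT libraries. In CPM, ΔLEO1 lay wholly below WT at 22.3% (0.1% serum) and 38.2% (10% serum) of all windows that passed the filter in ChIP. The pooled ratio was 0.291 (0.122 to 0.601) in WT 10% serum, 0.411 (0.168 to 0.875) in WT 0.1% serum, 0.143 (0.0378 to 0.384) in ΔLEO1 0.1% serum and 0.201 (0.0238 to 0.759) in ΔLEO1 10% serum. The call was made in all 4 groups, with log2 values of -1.55 ± 0.50, -1.08 ± 0.51, -2.24 ± 0.62 and -1.95 ± 0.91 in that order (edgeR adjusted p of 0.000720, 0.0289, 2.00e-05 and 0.0266). The call was lost in WT 10% serum without ChIP B (-1.24), and in WT 0.1% serum without ChIP A (-1.03), ChIP B (-1.26) or input B (-1.03).

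SNAI2, also known as Slug, lies on chromosome 8, with its leading window from 48920429 to 48922429. It held 4 and 5 ChIP reads in WT 10% serum, 0 and 0 in WT 0.1% serum, 3 and 1 in ΔLEO1 0.1% serum and 2 in ΔLEO1 10% serum, against 26 and 47, 35 and 37, 34 and 45, and 47 input reads. The WT libraries in 10% serum were the highest and those in 0.1% serum the lowest. A full separation of this direction between the WT groups was found at 22.8% of all windows that passed the filter in ChIP. In WT 0.1% serum the input rate gives 28.6 ChIP reads in the libraries together, and the pooled ratio was 0 (0 to 0.132). Counted against 3 reads over the group, with the input rate taken as exact, ChIP was 9.53-fold lower than input. In ΔLEO1 0.1% serum the pooled ratio was 0.119 (0.0318 to 0.318), and in WT 10% serum it was 0.373 (0.164 to 0.747). The call of less ChIP than input was made in all 4 groups (edgeR adjusted p from 7.73e-09 to 0.00949), and was lost in WT 10% serum without ChIP B (-1.33). The other 2 starts of SNAI2 lie 11 bp and 311 bp before the leading one and held nearly the same reads, with 0 ChIP reads in both WT 0.1% serum libraries. The start of the gene ENSG00000288761 shares these windows.

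OSR1, a factor of kidney and limb mesenchyme, stood between the sets. Its leading window (chromosome 2, 19357623 to 19359623) held 7 and 3 ChIP reads in WT 10% serum, 5 and 10 in WT 0.1% serum, 14 and 8 in ΔLEO1 0.1% serum and 4 in ΔLEO1 10% serum, against 26 and 55, 26 and 31, 12 and 49, and 37 input reads. The library ΔLEO1 0.1% serum A was the only one above its input rate, at 1.79-fold, and its input had 12 reads. The log2 value was -1.25 ± 0.47 in WT 10% serum (edgeR adjusted p = 0.00510), and the other groups did not pass, with -0.53 ± 0.42, -0.20 ± 0.37 and -0.95 ± 0.72 in WT 0.1%, ΔLEO1 0.1% and ΔLEO1 10% serum (adjusted p of 0.238, 0.640 and 0.245). The call in WT 10% serum was lost without ChIP B (-0.78) or input B (-0.97), and the value in ΔLEO1 0.1% serum turned to 0.64 without input B.

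A second start of OSR1, ENST00000487581, lies 1711 bp into the gene (19355912 to 19357912) and was on the other side of the input. It held 23 and 23, 35 and 22, 30 and 18, and 20 ChIP reads in the same order of groups. The ratio to input was 1.53 to 2.37 in the 7 libraries, above that of the leading window in 6 of 7. It was called higher in ChIP than in input in all 4 groups, with log2 values from 0.69 ± 0.28 in ΔLEO1 0.1% serum (edgeR adjusted p = 0.0239) to 1.17 ± 0.38 in ΔLEO1 10% serum (adjusted p = 0.0192).

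The T-box genes were on opposite sides. TBX5, a factor of the heart and forelimb, has its leading window on chromosome 12 from 114407442 to 114409442. It held 0 and 3 ChIP reads in WT 10% serum, 1 and 3 in WT 0.1% serum, 1 and 1 in ΔLEO1 0.1% serum and 2 in ΔLEO1 10% serum, against 26 and 49, 25 and 31, 20 and 36, and 43 input reads. No library had more than 3 ChIP reads. The pooled ratio was 0.121 (0.0244 to 0.367), 0.180 (0.0474 to 0.487), 0.0843 (0.00996 to 0.319) and 0.177 (0.0211 to 0.666) in that order, and the window was called lower in all 4 groups (edgeR adjusted p from 1.47e-05 to 0.0145). The other 4 distinct starts of TBX5 reach 4544 bp into the gene, and none of their windows had more than 4 ChIP reads in a library. Reads at the first starts cannot be told apart from those of the antisense gene TBX5-AS1.

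TBX15, a factor of dermal and skeletal mesenchyme, had more ChIP than input at its leading window (chromosome 1, 118988556 to 118990556). It held 12 and 14 ChIP reads in WT 10% serum, 21 and 13 in WT 0.1% serum, 32 and 12 in ΔLEO1 0.1% serum and 20 in ΔLEO1 10% serum, against 19 and 29, 16 and 32, 20 and 34, and 28 input reads. In 0.1% serum the genotypes overlapped, since the A and B libraries of ΔLEO1 spanned the reads of all WT libraries, whereas in 10% serum the ΔLEO1 library lay above both WT libraries. In WT the ChIP values in 0.1% serum (6.59 and 4.98 CPM) lay above those in 10% serum (4.93 and 4.89 CPM), by little in 1 library, and as ratios to input they overlapped. Among all windows that passed the filter in ChIP, ΔLEO1 lay wholly above WT in 10% serum at 33.8%. WT 0.1% serum lay wholly above WT 10% serum at 17.4%. The log2 values were 0.65 ± 0.36 in WT 10% serum (edgeR adjusted p = 0.0984), 0.76 ± 0.33 in WT 0.1% serum (adjusted p = 0.0370), 0.87 ± 0.31 in ΔLEO1 0.1% serum (adjusted p = 0.00926) and 1.59 ± 0.42 in ΔLEO1 10% serum (adjusted p = 0.00305). The call in WT 0.1% serum was close to the threshold. It was lost without any 1 of the WT 10%, WT 0.1% or ΔLEO1 0.1% ChIP libraries (0.47 to 0.85) and without WT 0.1% input A (0.36), and that in ΔLEO1 0.1% serum was lost without ChIP A (0.26). DESeq2 made neither call (0.68 and 0.75). A start 1213 bp into the gene, ENST00000369429, was not called in any group (adjusted p of 0.304 to 0.765), and a start 75.4 kb into the gene, ENST00000449873, was called higher in all 4.

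Of the homeodomain genes, MEOX2, a factor of somite and limb muscle precursors and of vessels, has 1 window (chromosome 7, 15685683 to 15687683). It held 14 and 17 ChIP reads in WT 10% serum, 22 and 20 in WT 0.1% serum, 30 and 13 in ΔLEO1 0.1% serum and 14 in ΔLEO1 10% serum, against 25 and 38, 28 and 21, 17 and 38, and 38 input reads. Every library was above its input rate, by 1.22-fold to 2.71-fold, and both of these extremes came from ΔLEO1 0.1% serum. The log2 value passed in WT 0.1% serum (1.03 ± 0.31, edgeR adjusted p = 0.00252) and in ΔLEO1 0.1% serum (0.82 ± 0.30, adjusted p = 0.0132), and did not in WT 10% serum (0.53 ± 0.32, adjusted p = 0.139) or ΔLEO1 10% serum (0.71 ± 0.45, adjusted p = 0.222). The call was lost in WT 0.1% serum without ChIP B (0.88) and in ΔLEO1 0.1% serum without ChIP A (0.35) or input A (0.66), and DESeq2 made neither (0.97 and 0.72). The start of the noncoding gene LINC02587 shares the window.

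PRRX1, a factor of limb and head mesenchyme, had the widest difference between its own starts. The leading window (chromosome 1, 170661728 to 170663728) held 2 and 2 ChIP reads in WT 10% serum, 4 and 0 in WT 0.1% serum, 2 and 1 in ΔLEO1 0.1% serum and 2 in ΔLEO1 10% serum, against 23 and 47, 33 and 27, 23 and 23, and 34 input reads. The pooled ratio was 0.173 (0.0458 to 0.462), 0.168 (0.0443 to 0.453), 0.154 (0.0306 to 0.479) and 0.223 (0.0264 to 0.847) in that order. The log2 values were -2.05 ± 0.64, -2.06 ± 0.64, -2.03 ± 0.69 and -1.82 ± 0.93, and all 4 passed (edgeR adjusted p from 0.000169 to 0.0458). The call in ΔLEO1 10% serum was lost without input A (-1.64) and with the replicate letter as a block (-1.74). The 3 starts up to 1403 bp further into the gene were also under the input rate in every library, with 0 to 7 ChIP reads.

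The 4 remaining PRRX1 starts lie 59.9 kb to 67.7 kb into the gene, in its body, and were higher than the leading window in 7 of 7 libraries each. At ENST00000495280 (170721645 to 170723645) the ChIP libraries held 20 and 26 reads in WT 10% serum, 25 and 29 in WT 0.1% serum, 36 and 27 in ΔLEO1 0.1% serum and 28 in ΔLEO1 10% serum, against 31 and 30, 32 and 27, 24 and 45, and 24 input reads. Each library lay 1.68-fold to 5.11-fold above its input rate. The log2 values were 1.10 ± 0.29, 1.13 ± 0.28, 1.05 ± 0.26 and 1.75 ± 0.36 in that order (edgeR adjusted p from 0.000131 to 0.000456). The pair of starts furthest into the gene was called higher in both genotypes in 0.1% serum (edgeR adjusted p of 0.000443 to 0.00290), while in 10% serum the adjusted p was 0.121 to 0.328. The serum difference itself was not called at either start.

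**Figure D2:**
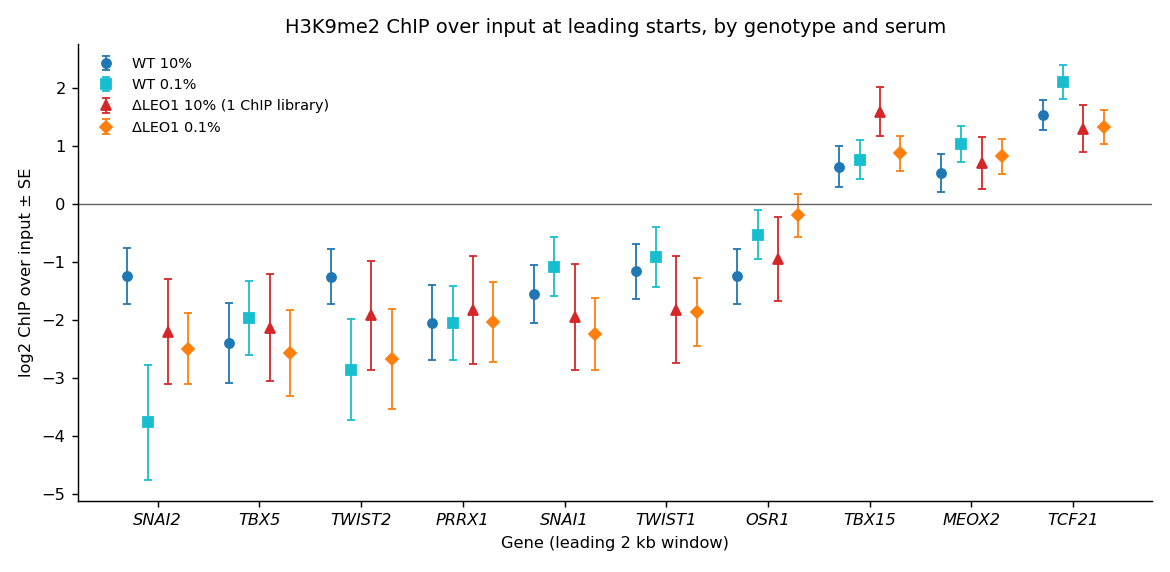
The log2 ChIP over input with its standard error at the leading window of each gene, by genotype and serum (ΔLEO1 in 10% serum has 1 ChIP library). Values under 0 mean fewer ChIP than input reads. The genes are ordered by their WT mean, which runs from -2.50 at SNAI2 to 1.82 at TCF21. The value of SNAI2 in WT 0.1% serum rests on 0 ChIP reads and depends on the prior count.

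Ordered by the mean of the WT groups, the log2 levels at the leading windows were -2.50 for SNAI2, -2.18 for TBX5, -2.05 for TWIST2, -2.05 for PRRX1, -1.32 for SNAI1, -1.04 for TWIST1, -0.89 for OSR1, 0.70 for TBX15, 0.78 for MEOX2 and 1.82 for TCF21, with SE of 0.196 to 0.552. The step from OSR1 to TBX15 was 1.59 ± 0.40 and that from MEOX2 to TCF21 was 1.04 ± 0.30, and both were over 2 SE. No other pair of neighbours in this order differed by more than 2 SE. The order was taken from these same values, so the steps describe it and 2 SE is not a test of a split.

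The surroundings of the low genes were not low throughout. Within 500 kb of TWIST1, 12 windows of other genes that do not overlap its own were tested, and in WT 10% serum 10 of them were called higher in ChIP than in input and 1 lower, with a median log2 of 1.25. Around SNAI2, 26 of 35 such windows were called higher and 3 lower, with a median of 1.42. Around TBX5 it was 21 higher and 6 lower of 36, and around PRRX1 30 higher and 14 lower of 56. TWIST2 had 11 higher and 11 lower of 41. SNAI1, by contrast, had 3 higher and 34 lower of 92, with a median of -0.62.

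Of the genes with more ChIP than input, TCF21 had both kinds around it, 16 higher and 22 lower of 66 windows, with a median of -0.01. No window around the others was called lower, with 20 higher of 47 around TBX15 and 4 higher of 9 around MEOX2. OSR1, whose leading window was under the input rate in 6 of 7 libraries, had 17 higher and 0 lower of 21, with a median of 1.51. The windows of a neighbourhood overlap and share a chromosome region, so these counts are a description.

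**Figure D3:**
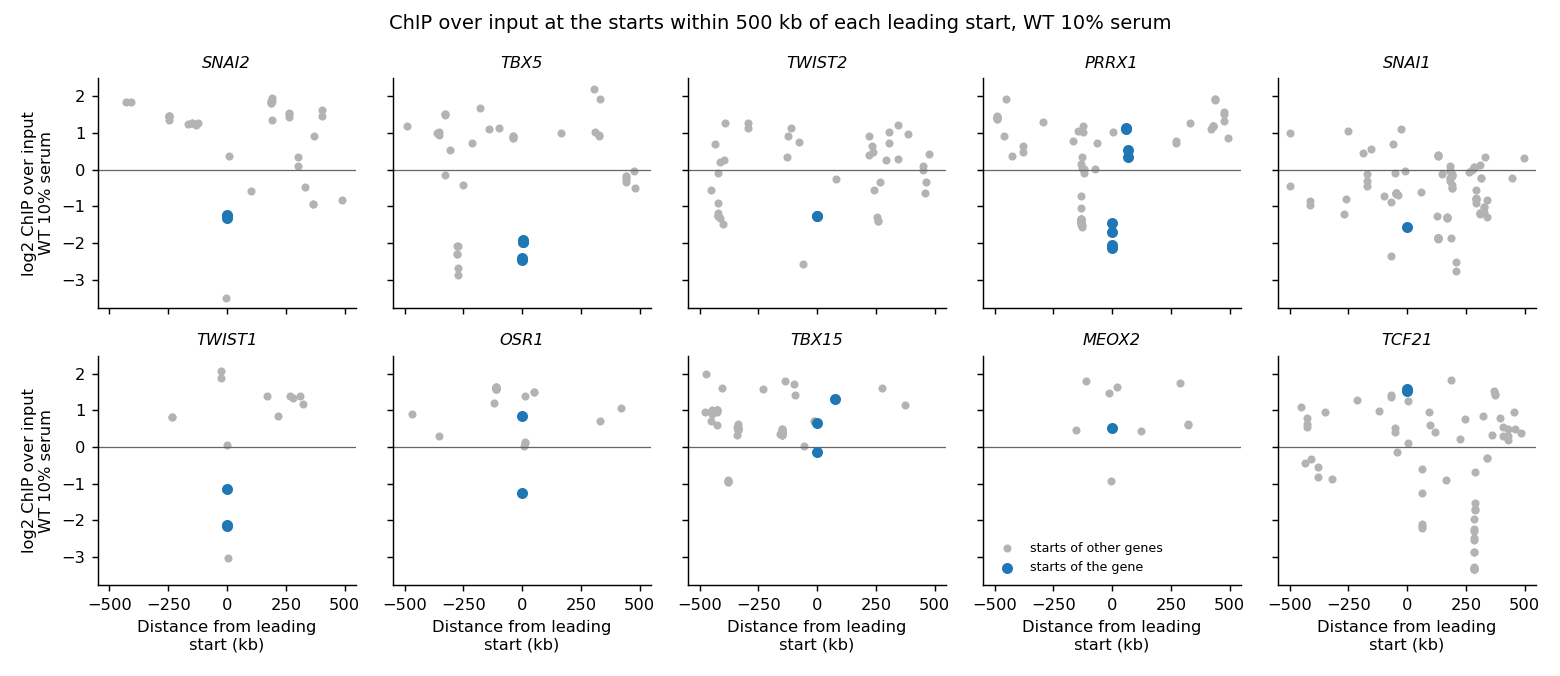
The log2 ChIP over input in WT 10% serum at all starts within 500 kb of each leading start, by distance in kb along the strand of the gene. Blue points are starts of the named gene, grey points starts of other genes. The PRRX1 starts near 60 to 68 kb lie above 0 while those at its front lie between -2.14 and -1.45, and TCF21 stands among the high points of its region.

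None of the 16092 merged peak regions of the second table lay within 10 kb of a leading start of the 10 genes. The share of all leading starts without a region this near was not computed, so this does not set these genes apart. The nearest were 11998 bp past the OSR1 start, annotated as an Alu repeat, and 17342 bp before PRRX1, and the furthest was 470930 bp before SNAI1. The region 27687 bp before TWIST1 held 27 and 19 ChIP reads in WT 10% serum against 16 input reads in all, a ratio of 8.69 (4.83 to 16.5). In ΔLEO1 0.1% serum its ratio was 4.85 (2.69 to 9.05). For TCF21 the nearest region ran from 1.54 (0.863 to 2.69) in WT 0.1% serum to 7.65 (4.27 to 14.3) in WT 10% serum. For TBX15 it ran from 0.914 (0.279 to 2.36) in ΔLEO1 10% serum (1 ChIP library) to 7.98 (4.08 to 16.8) in WT 0.1% serum. Peak regions are picked for ChIP reads, so a high ratio there is not a test. The windows of TCF21, MEOX2 and TBX15 were above input without holding a merged peak region, and how often this holds among all high windows was not computed.

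Other genes of the same kind were read at their leading windows for comparison. Among 28 other mesenchymal regulators, 18 were called lower and 3 higher in WT 10% serum, beside 23.1% lower and 40.7% higher of all leading windows, with a median log2 of -1.34. In ΔLEO1 10% serum 6 were called lower and 3 higher, beside 9.08% and 22.9%. The 10 genes described here had a median of -1.24, and the leading windows of all genes had a median of 0.40. The lowest of the list in WT were OSR2, a relative of OSR1 (-2.39 ± 0.69 in 10% serum, edgeR adjusted p = 1.60e-05), and NR2F1, a nuclear receptor (-2.40 ± 0.90, adjusted p = 0.000349). The highest were TCF4, a helix-loop-helix factor (1.59 ± 0.27, adjusted p = 8.95e-08), and TBX4, a T-box factor of the hindlimb (1.04 ± 0.29, adjusted p = 0.00112).

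Regulators of other lineages had a median near that of all genes in WT 10% serum, but a smaller share of them was called lower. Of 25 tested, 12 (48%) were called higher and 0 lower in WT 10% serum, beside the 40.7% and 23.1% of all leading windows, with a median of 0.41 beside 0.40. In WT 0.1% serum and in ΔLEO1 0.1% serum 11 were called higher and 2 lower in each. MYF5, a factor of skeletal muscle, was the highest (1.91 ± 0.26, edgeR adjusted p = 2.18e-11). The lowest was ELF3, an epithelial factor, at -0.58 ± 0.45, which did not pass in 10% serum (edgeR adjusted p = 0.216) although it was called lower in 0.1% serum (-1.18 ± 0.51, adjusted p = 0.0166).

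Genes that respond in the change between epithelial and mesenchymal states were divided, with 7 of 19 (36.8%) called lower and 1 higher in WT 10% serum, beside 23.1% and 40.7% of all leading windows, and a median of -0.55. ACTA2, smooth muscle actin, was at -2.56 ± 0.68 (edgeR adjusted p = 2.42e-06) and FN1, fibronectin, at -2.18 ± 0.64 (adjusted p = 4.49e-05). EPCAM, an epithelial adhesion protein, was at 1.30 ± 0.29 (adjusted p = 4.05e-05) and CLDN7, a tight junction protein, at 0.63 ± 0.31, which did not pass (adjusted p = 0.0666). These are the 2 lowest and 2 highest genes of the list by WT mean, and they do not show a split by cell state. Some mesenchymal genes of the list had a WT mean above 0, and an epithelial one had a mean below it. In ΔLEO1 0.1% serum ACTA2 was at -1.08, FN1 at -2.52, EPCAM at 1.01 and CLDN7 at -0.23.

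In each group the regulators of other lineages had a median above 0 and the other 3 lists a median below it. The lists were chosen with earlier results of these data known, so this contrast is a description and not a test. In ΔLEO1 0.1% serum the medians were -1.95 for the 10 genes, -1.50 for the other mesenchymal regulators, 0.60 for regulators of other lineages and -1.06 for the epithelial-mesenchymal target genes, beside 0.35 for all leading windows. In WT 0.1% serum they were -1.0, -1.21, 0.51 and -0.78, beside 0.33. In ΔLEO1 10% serum they were -1.82, -0.86, 0.78 and -1.10, beside 0.27. Setting windows without a ChIP read to their bound of 3 reads left each of these medians as it was.

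**Figure D4:**
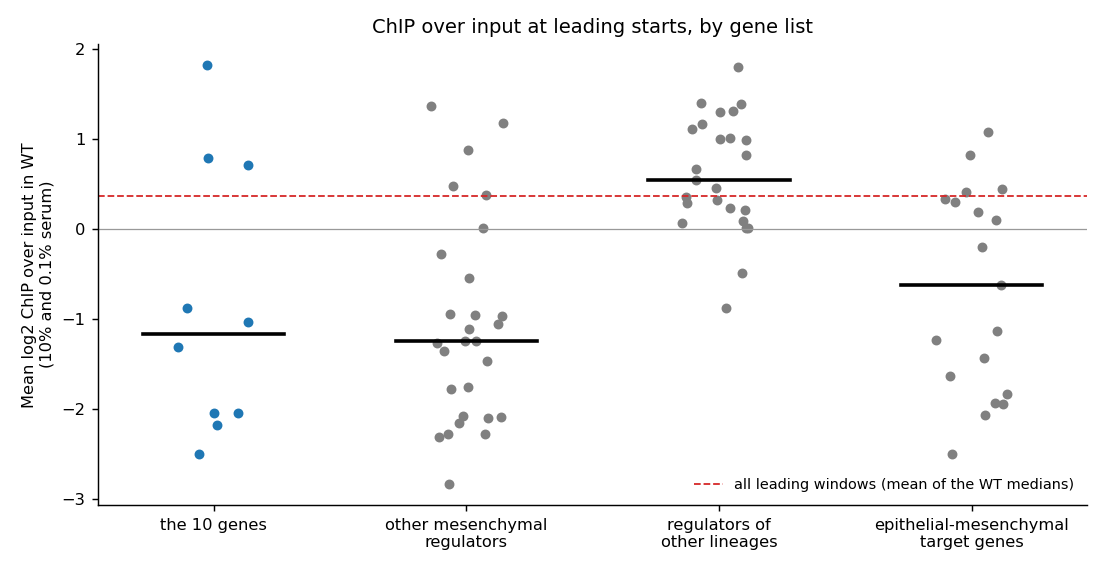
Mean log2 ChIP over input in WT (10% and 0.1% serum) at the leading window of each gene of 4 lists. Points are genes, black bars are list medians, and the dashed line is the level of all leading windows. Regulators of other lineages lie mostly above 0, and most of the 10 genes and of the other mesenchymal regulators lie below it.

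Across genes, ChIP over input was lower where CpG content was higher. Leading windows with an exactly matching RefSeq promoter were split into 4 classes of like size by the CpG observed over expected before the start. The median WT log2 was 0.64 in the class with the least CpG (3369 windows, up to 0.343), -0.15 in the next (up to 0.734), -0.81 in the one after that and -1.05 in the class with the most. TCF21 belongs to the class with the least and MEOX2 to the next, and both were above the median of their class. TBX5 and TWIST2 belong to the class whose median was -0.81 and were below it.

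The comparison of genotypes asked whether loss of LEO1 changed the mark at these genes, relative to other windows, in quiescent cells. TMM hides a change shared by all windows, so 0 calls do not mean an unchanged level. Scaled by its fly spike-in, the study reports many more TSS regions with raised than with lowered H3K9me2 in this comparison. With peak-table totals as library sizes, 2152 of 174882 windows in all were called higher and 145 lower by edgeR. In a fit of the 7 ChIP libraries, 12 of the 30 distinct windows passed the filter on low counts, and these are the 12 that were not under the input rate in every library, so the 18 low windows have no value there. In 0.1% serum 0 of the 12 were called between ΔLEO1 and WT (edgeR quasi-likelihood test; 0 at an unadjusted p under 0.05), beside 0.347% of all 159524 windows tested. DESeq2 called 0 of 30, with 0 at an unadjusted p under 0.05, and edgeR without the filter called 0 of 30, with 2 under 0.05. With the input difference taken off, in the fit of 15 libraries that kept all 30 windows, 0 were called and 3 had an unadjusted p under 0.05.

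The log2 differences in ChIP over input between ΔLEO1 and WT in 0.1% serum ran from -1.16 to 1.29 over the 30 windows. TCF21 was at -0.78 ± 0.41 (edgeR adjusted p = 0.660), with 35 and 20 ChIP reads against 41 and 28. SNAI1 was at -1.16 ± 0.80 (adjusted p = 0.743), with 2 and 2 reads against 4 and 4, and TWIST1 at -0.95 ± 0.79 (adjusted p = 0.805). SNAI2 was at 1.27 ± 1.17 (adjusted p = 0.616), from 3 and 1 reads against 0 and 0, and this value depends on the prior count. PRRX1, at 0.03 ± 0.94, and TWIST2, at 0.19 ± 1.22, had errors that allow a large change either way.

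In 10% serum 0 of 12 windows were called between ΔLEO1 and WT (edgeR; 1 at an unadjusted p under 0.05), beside 0.0295% of all windows, and DESeq2 called 0 of 30 with 0 at an unadjusted p under 0.05. The window with the small p was the leading one of TBX15, with 20 reads in the usable ΔLEO1 library against 12 and 14 in WT, a log2 fold change in ChIP of 0.94 ± 0.42 (edgeR adjusted p = 0.497). With the input difference taken off it was 0.94 ± 0.55 (adjusted p = 0.806). The other genes at their leading windows lay between -0.96 and 0.30 on this scale.

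The inputs of the genotypes in 0.1% serum were compared as the background of these differences. Of the 30 windows, 0 were called (edgeR; 0 at an unadjusted p under 0.05, and 0 by DESeq2 with 0 under 0.05), beside 0% of all windows. The log2 differences in input ran from -0.36 to 0.41, and at the leading windows SNAI1 and TWIST1 had the largest, 0.41 each (edgeR adjusted p of 0.942 and 0.958).

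Serum withdrawal was compared within each genotype. In WT 0 of 12 windows were called in ChIP between 0.1% and 10% serum (edgeR; 1 at an unadjusted p under 0.05, the TBX15 start 75.4 kb into the gene), beside 0.270% of all windows. DESeq2 called 0 of 30 with 3 under 0.05, edgeR without the filter called 0 of 30 with 6 under 0.05, and with the input difference taken off 0 of 30 were called with 6 under 0.05. In ΔLEO1 0 of 12 were called (edgeR; 0 under 0.05, and 0 of 30 by DESeq2 with 0 under 0.05), beside 0.0633% of all windows.

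SNAI2 had the smallest p of the 10 genes for serum. Its ChIP reads went from 4 and 5 in 10% serum to 0 and 0 in 0.1% serum in WT, while the inputs held 26 and 47 against 35 and 37 reads. The groups thus did not overlap in ChIP, as at 22.8% of all windows that passed the filter, where WT 0.1% serum lay wholly lower. Without the filter the ChIP difference had an adjusted p of 0.247 by edgeR, and with the input difference taken off an adjusted p of 0.231, so it failed the correction on both scales. TWIST2 went from 4 and 6 reads to 1 and 0, with a log2 difference in ChIP over input of -1.61 ± 0.99 (adjusted p = 0.487). The remaining leading windows lay between -0.01 (PRRX1) and 0.72 (OSR1), all with an adjusted p of 0.701 or more. In ΔLEO1, SNAI2 held 2 reads in the library at 10% serum and 3 and 1 in 0.1% serum, a difference of -0.29 ± 1.09.

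**Figure D5:**
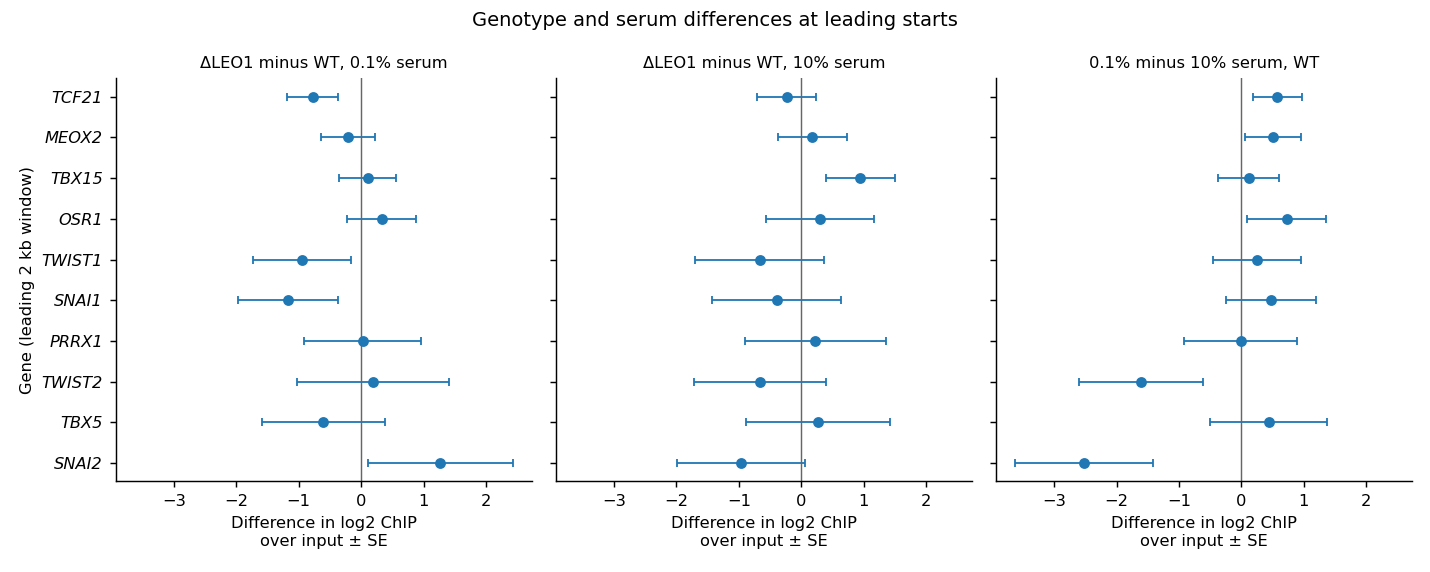
Differences in log2 ChIP over input (points, with standard errors) at the leading window of each gene, for ΔLEO1 minus WT in 0.1% and in 10% serum and for 0.1% minus 10% serum in WT, from the fit of 15 libraries. All differences lie within 2 standard errors of 0 except that of SNAI2 in the WT serum comparison, which rests on 0 ChIP reads in 0.1% serum and did not pass after correction.

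Whether the effect of serum differed between the genotypes was tested as an interaction in the 7 ChIP libraries. Of the 12 windows, 0 were called (edgeR; smallest adjusted p = 0.899, 0 at an unadjusted p under 0.05). DESeq2 called 0 of 30 with 0 under 0.05, and edgeR without the filter 0 of 30 with 2 under 0.05. The values ran from -0.94 to 0.32 on the log2 scale.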

How the data were processed

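ChIP and input libraries of WT and ΔLEO1 BJ-5ta fibroblasts were grouped by their labels. Unscaled counts of reads over TSS windows and over merged peak regions were deposited by the authors as 2 tables. Per the methods of the study, cross-linked chromatin was sonicated and reads were counted with csaw. The submitters' processing notes name bcl2fastq 2.20.0.422, STAR 2.7.10a, HOMER, hg38 and dm6. Fly chromatin was spiked in, but 0 windows carry fly contig names, and a gain or loss of the mark everywhere would be hidden by TMM and by library totals alike.

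Counts were tested with edgeR 4.0.16 in R 4.3.3 (two-sided quasi-likelihood F-test, filterByExpr with a minimum count of 10, TMM, prior count 2, 1 coefficient per group), and p-values were adjusted by Benjamini-Hochberg over all windows tested, with 0.05 as the threshold. Standard errors came from the fitted information at the fitted means plus the prior count, times the quasi-dispersion. Genotype and serum were compared in the 7 usable ChIP libraries, and ChIP over input in 15 libraries. Alternatives were no filter, no TMM, DESeq2 1.42.0, the replicate letter as a block, distinct windows only, peak-table totals as library sizes, the input difference taken off, the library of 54 reads kept, and each library left out. Scripts were tested on simulated data. Intervals (95%) and the floor of 3 reads allow for counting error alone, as PCR copies could not be told from separate molecules.

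All 10 genes are named, and genes of the comparison lists are named only as the 2 lowest and 2 highest by WT mean, of which 2 are not reported here. The members and lists were chosen with earlier results of these data known. Promoter bases are from RefSeq, GRCh38.p14. The peak table was used only for distances, library sizes and nearest regions.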

Additional observations from a re-analysis of the deposited data

How the results depend on the processing

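The counts of called windows kept within 1.5 times under each planned setting, except that DESeq2 called 3 of 30 windows in ChIP over input for ΔLEO1 10% serum, against 21 by edgeR, where 1 ChIP library was available and the cause was not tested. Leaving out 1 library gave 14 to 22 calls there (14 without input B), 19 to 25 in WT 10% serum, 21 to 27 in WT 0.1% serum and 23 to 28 in ΔLEO1 0.1% serum. The genotype, serum and input comparisons had 0 calls under each setting run. DESeq2 with a constant dispersion trend was used for the inputs, a choice made after seeing the data.

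The letters A and B showed little joint deviation (correlations of -0.05 to 0.11), and the main fits did not pair them. Many windows hold few reads, so such correlations do not exclude a pairing. The ratios per library do use the letters, because each ChIP library was set against the input of the same group and letter. With the replicate letter as a block the calls in ChIP over input numbered 25, 27, 28 and 21, as without it, and the genotype and serum comparisons had 0. One leading window lost its call under the block, PRRX1 in ΔLEO1 10% serum (-1.74), and MEOX2 turned to -0.030 for serum in ΔLEO1.

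Directions turned only where the value was not called. For ΔLEO1 against WT in 0.1% serum, MEOX2 turned to 0.25 with peak-table totals. For serum in WT, TCF21 turned to 0.10 with peak-table totals and to 0.57 with the input difference taken off. For serum in ΔLEO1, TCF21 turned to 0.0082 without the filter, 0.011 without TMM, 0.21 with peak-table totals, 0.12 with the library of 54 reads kept and 0.030 with the input difference taken off. Leaving out 1 library gave these ranges where a direction turned. OSR1 ChIP over input in ΔLEO1 0.1% serum ran from -0.57 to 0.64. For ΔLEO1 against WT in 0.1% serum, TBX15 ran from -0.20 to 0.54, OSR1 from -0.071 to 0.93 and MEOX2 from -0.38 to 0.18, and in 10% serum OSR1 ran from -0.37 to 0.64. For serum in WT, TCF21 ran from -0.19 to 0.038 and OSR1 from -0.17 to 0.95, and in ΔLEO1, TCF21 ran from -0.17 to 0.041 and MEOX2 from -0.32 to 0.24.

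The 18 low windows held at most 7 ChIP reads in a library, and the size of change detectable there was not computed. The groups have 2 ChIP libraries or 1, and ΔLEO1 is 1 clone, so genotype and clone cannot be told apart.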
